A study of Homo sapiens with 4 samples.

Results

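The MEF2 transcription factors and the class IIa histone deacetylases (HDACs), the repressors that bind them, were followed in a breast cancer cell line and in its lung-metastatic derivative. The genes were taken by name from the deposited expression table, which lists 57815 genes: 3 MEF2 factors (MEF2A, MEF2C and MEF2D) and the 4 class IIa deacetylases (HDAC4, HDAC5, HDAC7 and HDAC9). Each of the 7 names occurs once, and all 7 genes were among the 13911 that passed the filter on low values (a mean of at least 0.5 FPKM over the lines, with no status but OK). MDA-MB-231 is an established human triple-negative breast cancer line. LM2-4175, named LM2 in the table and below, was isolated from MDA-MB-231 and spreads to the lung. Both lines were untreated and carry no stated engineered allele, so the comparison sets a derived line against its parent. RNA was sequenced from 2 libraries of each line, 4 in all, but the table gives 1 value per gene and line, combined over the libraries. Values are in FPKM, a fragment count per kilobase of transcript corrected for sequencing depth, so that levels can be compared between genes. Each value has a lower and an upper bound computed by the authors. With no value per library there is no replicate check, no SD and no p-value here, and these bounds are the only measure of error; whether they cover the spread between libraries is not stated.

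MEF2 factors are MADS-box proteins that bind an A/T-rich element and switch genes on in muscle, neurons, lymphocytes and blood vessels, often in response to calcium and mitogen signals. Class IIa deacetylases have little catalytic activity of their own. They dock onto MEF2 through an amino-terminal stretch, bring corepressors to its target genes and keep them off. Kinases such as the calcium/calmodulin-dependent kinases, protein kinase D and the salt-inducible kinases phosphorylate them, after which 14-3-3 proteins hold them in the cytoplasm and MEF2 is released. HDAC9 is also known to give a shorter product that lacks the deacetylase domain and still represses MEF2.

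One gene of each family rose in LM2: MEF2A among the factors and HDAC9 among the deacetylases. A gene was called where (FPKM + 1) differed by at least 1.5-fold and the bounds of the cell lines did not overlap. By this rule 2 of the 7 genes were called higher in LM2 and 0 lower, while 4.67% of all genes tested were called higher and 4.61% lower (9.27% in either direction). All log2 fold changes below are of (FPKM + 1) in LM2 over MDA-MB-231, and values given as from and to run from MDA-MB-231 to LM2. In such bulk RNA, fewer cells that express a gene and less of its RNA per cell cannot be told apart.

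MEF2A (ENSG00000068305.13) lies on the plus strand of GRCh37 (hg19) chromosome 15 from 100105622 to 100256693 and encodes the MEF2 factor that is found in most tissues. Its expression was 12.6 FPKM (authors' bounds 7.93–17.3) in the parental line and 30.2 FPKM (19.2–41.1) in LM2. The bounds do not overlap, although they come close, with the lower one of LM2 1.11 times the upper one of MDA-MB-231. The ratio of the values was 2.39 and the log2 fold change 1.20. Among the 13911 genes tested this was the 433rd highest log2 fold change, and its size exceeded that of 94.3% of them. By level, MEF2A stood at percentile 51.5 of the tested genes in MDA-MB-231 and at percentile 74.7 in LM2.

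MEF2C, a factor prominent in heart, muscle, neurons and lymphocytes (chromosome 5, 88012934 to 88200074, minus strand), was the lowest of the 7 genes in both lines. It had 2.87 FPKM (1.28–4.47) in the parental line and 1.82 FPKM (0.792–2.85) in LM2. These bounds overlap, and the log2 fold change of -0.46 was not called. Without the added 1 the ratio of the values was 0.633, or 1.58-fold lower in LM2, which is beyond the fold threshold. MEF2D, the other broadly expressed factor (chromosome 1, 156433519 to 156470571, minus strand), had the same level in the lines to within the rounding: 14.8 FPKM (10.7–18.8) in the parental line and 14.8 FPKM (11.0–18.6) in LM2. Its ratio was 1.00, and dividing the bounds crosswise gives a range of 0.584 to 1.73, so that a change of 1.5-fold lies inside it. MEF2B, the remaining gene of the family and not one of the 7, was at 4.22 FPKM in MDA-MB-231 and 3.80 FPKM in LM2. Its value is uncertain, because 76.8% of its exon bases are shared with a readthrough transcript of its neighbour.

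HDAC9 (ENSG00000048052.17, chromosome 7 from 18126572 to 19042039, plus strand) rose most of the 7. Its expression was 12.0 FPKM (8.46–15.5) in the parental line and 35.3 FPKM (26.0–44.6) in LM2. The lower bound of LM2 was 1.67 times the upper bound of MDA-MB-231, a wider gap than for MEF2A. This is a ratio of 2.94 and, on the log2 scale, a change of 1.48, the 277th highest of the genes tested and larger in size than 96.5% of them. HDAC9 stood at percentile 50.3 of the tested genes in MDA-MB-231 and at 78.1 in LM2. GENCODE 44 lists 36 transcripts of the gene, and the single value in the table does not separate the full-length from the short product.

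HDAC5, a deacetylase of heart and neurons (chromosome 17, 42154114 to 42201070, minus strand), had 8.42 FPKM (5.28–11.6) in the parental line and 12.3 FPKM (8.33–16.2) in LM2. Its ratio of 1.46 and log2 fold change of 0.49 stayed under the threshold, and the bounds overlap. HDAC7, known from endothelium and thymocytes (chromosome 12, 48176505 to 48226915, minus strand), had 21.0 FPKM (15.0–27.1) in the parental line and 17.9 FPKM (11.5–24.3) in LM2, a log2 fold change of -0.22. HDAC4, known as a brake on chondrocyte hypertrophy and from muscle (chromosome 2, 239969864 to 240323348, minus strand), had 7.83 FPKM (0–16.1) and 6.10 FPKM (0–12.3), a log2 fold change of -0.31. None of these 3 deacetylases was called. For HDAC4 neither an increase nor a decrease could have been called by the rule, since its lower bounds are 0 in both lines.

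**Figure D1:**
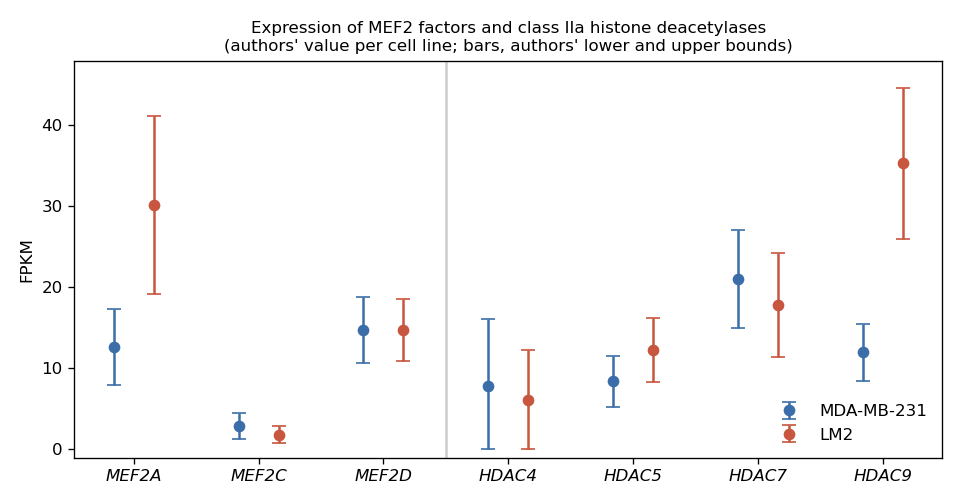
FPKM of the 3 MEF2 factors and 4 class IIa deacetylases in MDA-MB-231 (blue) and LM2 (red). Points are the authors' combined value per cell line and bars run from the authors' lower to upper bound; the bars separate for MEF2A and HDAC9 and overlap for the other 5 genes.

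The bounds were of ordinary width for most of these genes. From the value to the upper bound they spanned 37.1% of the FPKM for MEF2A in MDA-MB-231 and 36.3% in LM2, against medians of 35.3% and 31.6% for genes within 1.5-fold of its level. For HDAC9 the widths were 29.5% and 26.4%, narrower than the medians of 35.7% and 31.2% at its level. HDAC4 stood apart with 106% in MDA-MB-231 and 101% in LM2, where genes of its level had medians of 39.1% and 40.1%. As strand was not stated to be used in the counting, overlapping genes can add to a value. No exon of another gene overlaps HDAC9 or MEF2D, and MEF2C-AS1, antisense to MEF2C, was under 0.5 FPKM in both lines. LYSMD4 on the opposite strand overlaps 11.1% of the exon bases of MEF2A and was listed at 1.45 FPKM (0–3.63) in the parental line and 4.35 FPKM (0–9.98) in LM2. For HDAC5 the overlap is 24.0%, with G6PC3 on the opposite strand, which had 53.5 FPKM and 49.3 FPKM and so was the more abundant of the pair. For HDAC7 it is 11.2%, most of it (9.7%) with a long non-coding gene on the opposite strand whose level was not examined. For HDAC4 it is 2.5%.

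The order of the genes by level differed between the lines. In MDA-MB-231 HDAC7 was highest, followed by MEF2D, MEF2A, HDAC9, HDAC5, HDAC4 and MEF2C. In LM2 HDAC9 came first and MEF2A second, with the other 5 in the same order as before. Every gene's bounds overlapped those of the next gene in the order, in both lines, so no adjacent pair was separated. Of the 21 possible pairs, 6 had bounds apart in MDA-MB-231 and 12 in LM2. In LM2 HDAC9 was above each of the other 3 deacetylases by this measure, whereas in MDA-MB-231 its bounds overlapped those of all 3. MEF2A was above MEF2C and MEF2D in LM2, and above MEF2C alone in MDA-MB-231.

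The FPKM of the 3 MEF2 factors summed to 30.2 in the parental line and to 46.7 in LM2, a ratio of 1.55. The share of MEF2A in this sum went from 41.7% to 64.5%. Without it the sums were 17.6 and 16.6 FPKM, a ratio of 0.941. The class IIa deacetylases summed to 49.3 FPKM in MDA-MB-231 and 71.6 FPKM in LM2, a ratio of 1.45, and without HDAC9 to 37.3 and 36.2 FPKM, a ratio of 0.972. HDAC9 went from 24.4% to 49.4% of the deacetylase sum and HDAC7 from 42.7% to 25.0%, while HDAC5 had 17.1% in both. Because both families had larger sums in LM2, the FPKM of class IIa deacetylases per FPKM of MEF2 factors moved little, from 1.63 to 1.53. These sums carry no error estimate, since bounds of different genes cannot be added.

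**Figure D2:**
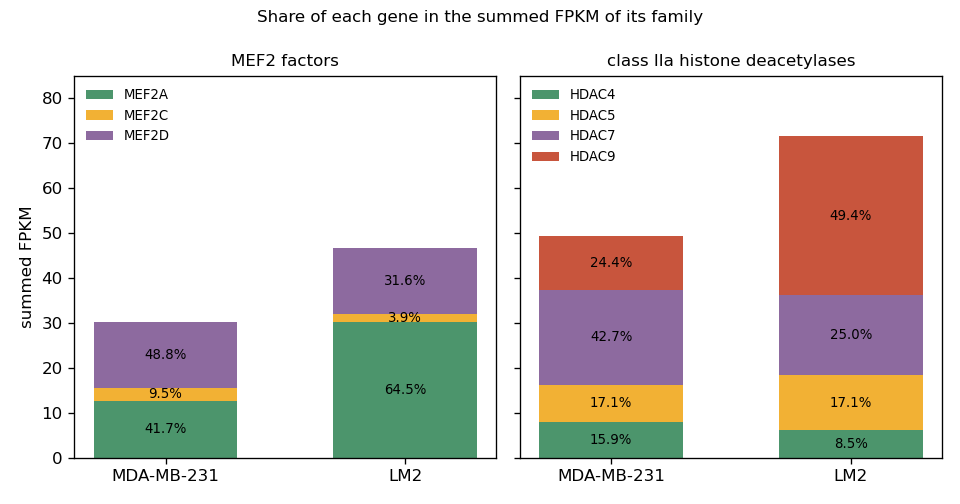
Summed FPKM of the MEF2 factors (left) and of the class IIa deacetylases (right) in each cell line, with the share of each gene written in its segment. MEF2A and HDAC9 take the largest share of their family in LM2, 64.5% and 49.4%, where MEF2D and HDAC7 do in MDA-MB-231.

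MEF2A and HDAC9 each have a MEF2-type element at a start site. The RefSeq promoter table (GRCh38.p14, 250 bases before to 50 bases after a start) holds 22 entries for 6 of the 7 genes, each found once in GRCh37. There is none for HDAC5. The element CTA, any 4 bases and TAG, whose pattern reads the same on both strands, occurs in 2 of these entries, 1 of MEF2A and 1 of HDAC9. Of all 35116 promoters in the table, 2.73% hold it, as do 3.38% of the 27305 genes with an entry. The wider MEF2 consensus, which such an element meets where the 4 bases are A or T, was found in 3.67% of genes and, besides these 2 entries, in 1 of the 7 entries of MEF2C. The stretches from 250 bases before to 10 bases after the start are shown for MEF2A and HDAC9 because they carry the binding element of the factors themselves, which is in capitals. Both are read on the plus strand of GRCh37, at chr15:100105939-100106198 for MEF2A and chr7:18126198-18126457 for HDAC9.
MEF2A: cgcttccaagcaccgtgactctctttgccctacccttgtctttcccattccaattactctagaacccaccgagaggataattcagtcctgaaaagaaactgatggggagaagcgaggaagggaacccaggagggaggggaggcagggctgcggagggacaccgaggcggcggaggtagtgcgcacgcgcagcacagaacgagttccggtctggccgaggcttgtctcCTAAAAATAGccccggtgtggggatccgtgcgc
HDAC9: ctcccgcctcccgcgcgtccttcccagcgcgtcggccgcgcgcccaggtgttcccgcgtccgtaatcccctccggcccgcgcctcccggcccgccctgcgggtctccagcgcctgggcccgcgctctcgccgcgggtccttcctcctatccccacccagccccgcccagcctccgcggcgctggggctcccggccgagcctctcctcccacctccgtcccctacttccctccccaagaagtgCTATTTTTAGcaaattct
The element of MEF2A begins 23 bases before the start (chromosome 15, 100106166 to 100106175). That of HDAC9 begins 8 bases before the start of its entry and runs across that start (chromosome 7, 18126440 to 18126449). Its letters are the reverse complement of those in MEF2A. The other 2 entries of MEF2A and the other 4 of HDAC9 do not contain the element. The starts of these 2 RefSeq entries are not the gene starts given above from GENCODE (100105622 for MEF2A and 18126572 for HDAC9). Which start is used in these cells was not examined. The shares of genes given above do not allow for the number of entries a gene has. The GC box GGGCGG, on either strand, was present in 5 of the 22 entries, where 45.0% of all promoters hold it, and TATAAA in 0 of the 22, where 11.5% of all promoters do. Such a match only describes the letters, and binding was not measured in the table.

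The study also lists a qPCR primer pair for MEF2A, shown here because it marks which transcripts that assay can read.
forward: actacagacctcacagtgcca
reverse: gcctaagctatttgcaccagt
The forward primer matches chr15:100215618-100215638 on the plus strand of GRCh37 and the reverse primer chr15:100230493-100230513 on the minus strand. Each lies within an exon of 11 of the 18 MEF2A transcripts in GENCODE 44, in which the product has 114 bases. The FPKM value, in contrast, is a sum over all transcripts of the gene.

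MEF2A and HDAC9 differed in how the genes around them behaved. All 20 other genes tested within 3 Mb of MEF2A were higher in LM2 by FPKM, 6 of them by the full rule. They had a median log2 fold change of 0.94, against -0.04 for all genes tested, and MEF2A exceeded it by 0.26 and ranked eighth among the 21 genes. This excess is smaller than the error of 0.33 that the bounds of MEF2A give for its log2 fold change. Within 10 Mb, 52 of 52 neighbours were higher and 17 were called, with a median of 0.93. LYSMD4, which overlaps MEF2A, had a log2 fold change of 1.13, but its lower bounds of 0 in both lines allow no call. The nearest tested protein-coding genes beyond the ends of MEF2A were LRRC28 and ADAMTS17, and neither was called. LRRC28 had 4.71 FPKM in MDA-MB-231 and 11.5 FPKM in LM2 (log2 fold change 1.13), and ADAMTS17 had 0.483 and 1.54 FPKM (0.78). The stretch as a whole was thus higher in LM2, and its part in the change of MEF2A was not tested. HDAC9, by contrast, stood out from its surroundings. Of 12 neighbours within 3 Mb, 9 had a higher FPKM in LM2, 0 were called higher and 2 were called lower. Their median log2 fold change was 0.13, HDAC9 exceeded it by 1.35 and was the highest of the stretch. Of 51 neighbours within 10 Mb 7 were called higher, and there HDAC9 had rank 8 by log2 fold change. The flanking genes SNX13 (15.3 FPKM in MDA-MB-231 and 14.4 FPKM in LM2) and TWISTNB (15.4 and 18.1 FPKM) had log2 fold changes of -0.08 and 0.22 and were not called. TWIST1 and FERD3L, transcription factor genes beyond the end of HDAC9, were listed at 0 in both lines.

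The other 5 genes were not called, and their distances from the median of their neighbours ran from -0.69 to 0.52. MEF2C was the one furthest below, with 10 of its 12 neighbours higher in FPKM in LM2 and a median of 0.23 among them. HDAC5 exceeded the median of its 106 neighbours by 0.52. MEF2D differed from its 102 neighbours by 0.03, HDAC4 from its 39 by -0.30 and HDAC7 from its 57 by -0.27. None of the nearest tested protein-coding genes beyond either end of these 5 genes was called. They were TMEM161B and CETN3 for MEF2C, CCT3 and IQGAP3 for MEF2D, and ASB1 and NDUFA10 for HDAC4. For HDAC5 they were LSM12 and C17orf53, and for HDAC7 RAPGEF3 and VDR. The largest difference among them was that of RAPGEF3, from 1.73 to 4.21 FPKM (log2 fold change 0.93), with a lower bound of 0 in MDA-MB-231. G6PC3 overlaps 24.0% of the exon bases of HDAC5, and SLC48A1 only 0.3% of those of HDAC7. They had log2 fold changes of -0.11 and 0.81 and were not called.

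The remaining genes of the pathway were examined by lists of general knowledge and by lists that the study predicted. Of 92 tested genes outside the 7, counting LYSMD4, which overlaps MEF2A and is not of the pathway, 8 were called higher and 4 lower. Together these were 13.0%, against 9.27% of all genes tested. The median log2 fold change of the 92 was -0.07. Of these calls, 6 higher and 1 lower came from the 13 genes of the predicted lists, which the study drew up on these same samples, so their direction is not independent evidence. Among the other 79 genes 2 were called higher and 3 lower, together 6.33%, a share below that of all genes tested.

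Other deacetylases did not pass the rule in either direction. The 4 class I enzymes, the nuclear deacetylases that supply the catalytic activity of corepressor complexes, had a median log2 fold change of -0.07. HDAC8, the most different of them, had 14.4 FPKM (8.27–20.4) in the parental line and 21.6 FPKM (12.2–31.0) in LM2. The class IIb and class IV enzymes were lower in FPKM in 3 of 3 cases (as were 7585 of all 13911 genes tested), with a median of -0.52. Among them HDAC11 had 11.1 FPKM (7.74–14.6) in the parental line and 6.01 FPKM (3.82–8.19) in LM2, a log2 fold change of -0.79 that passed the fold threshold with overlapping bounds. All 7 sirtuins, which use NAD instead of zinc, were tested and 0 were called, with a median of -0.02. SIRT6 had the largest difference, 13.2 FPKM (8.61–17.8) in the parental line and 19.2 FPKM (12.4–26.1) in LM2. The 10 corepressor partners, NCOR1 among them, differed by -0.45 to 0.37 on the log2 scale (median -0.06), with TBL1X, a subunit of the NCOR complex, the most different at 15.3 FPKM (8.77–21.8) in the parental line and 10.9 FPKM (6.47–15.4) in LM2.

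Of the 16 kinases that phosphorylate class IIa deacetylases, 12 were tested and 0 were called, at a median of -0.07. CAMK2D, a calcium/calmodulin-dependent kinase, had the largest difference, from 28.1 FPKM (20.1–36.1) to 16.8 FPKM (12.0–21.5). SIK1, a salt-inducible kinase, differed in the other direction, from 7.10 FPKM (5.31–8.90) to 11.6 FPKM (8.64–14.5), a log2 fold change of 0.63 with bounds that overlap slightly. The genes of the 14-3-3 proteins, which hold phosphorylated class IIa deacetylases in the cytoplasm, were lower by FPKM in LM2 in 7 of 7 cases, 2 of which were called. Their median log2 fold change was -0.42. Of all 13911 genes tested, 7585 were lower by FPKM and 4.61% were called lower. SFN, the 14-3-3 protein of epithelial cells, fell from 105 FPKM (81.4–129) to 56.0 FPKM (43.0–69.0). YWHAQ fell from 313 FPKM (239–387) to 188 FPKM (144–232). Of the 6 phosphatase genes, PPP2R1A, a scaffold subunit of protein phosphatase 2A, was called lower, from 158 FPKM (117–199) to 90.1 FPKM (65.6–115). The calcineurin genes PPP3CA, PPP3CB, PPP3CC and PPP3R1 were not called, and the median of the 6 was -0.09.

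On the side of MEF2, 9 of 10 activating kinases were tested and 0 were called, with a median of -0.12. MAP3K3, which acts above the MAPK7 branch, came closest with 28.9 FPKM (20.6–37.1) in the parental line and 16.1 FPKM (11.0–21.1) in LM2, a log2 fold change of -0.81. Of 14 coactivators and cofactors 12 were tested, 1 was called higher and 0 lower. That gene was NFATC4, a calcineurin-dependent factor that works with MEF2, at 0.304 FPKM (0–0.702) in the parental line and 1.67 FPKM (0.926–2.41) in LM2, a low level in both. The acetyltransferases EP300 and CREBBP had log2 fold changes of -0.04 and -0.20, and the median of the list was -0.22.

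Of 19 genes known from other tissues as MEF2 targets, 12 were below the filter, among them the muscle genes CKM, MYOG, DES and SMYD1. Of the 7 that were tested, 1 was called higher. It was JUN, which codes for an AP-1 factor, with 26.8 FPKM (20.7–32.9) in the parental line and 42.6 FPKM (33.0–52.2) in LM2. The metabolic coactivator gene PPARGC1A had a larger log2 fold change of 0.88, from 0.648 FPKM (0.00399–1.29) to 2.04 FPKM (1.03–3.04), with overlapping bounds. The median over the 7 was 0.12.

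The 7 genes that the study predicted as targets of MEF2A all had a higher FPKM in LM2 and 4 passed the rule; the median over the 7 was 1.02 on the log2 scale. PHACTR1, a regulator of actin and phosphatase 1, rose from 0.341 FPKM (0–0.974) to 5.77 FPKM (2.43–9.10). SASH1, a scaffold protein gene, rose from 2.96 FPKM (2.20–3.73) to 12.4 FPKM (9.45–15.3). PAG1, which encodes a membrane adaptor that recruits the kinase CSK, rose from 2.75 to 7.53 FPKM and SLC35F3, a solute carrier gene, from 3.07 to 7.24 FPKM. FOXP1, ARNTL and PDE4D had log2 fold changes of 0.89, 0.84 and 0.64 with overlapping bounds. As the study chose these genes on the same samples, the count adds no independent evidence. The same holds for its predicted regulators. For MEF2A, CEBPB rose from 5.45 FPKM (3.86–7.03) to 22.8 FPKM (17.3–28.3), MYEF2 rose from 14.5 FPKM (8.80–20.2) to 33.7 FPKM (21.1–46.3), and SP4 was not called. For HDAC9, CREB3L1, an endoplasmic reticulum-bound factor, fell from 58.8 FPKM (43.5–74.1) to 22.4 FPKM (16.8–28.0), a log2 fold change of -1.35 opposite in sign to that of HDAC9. ARID3A (1.10) and KLF7 (0.54) had higher FPKM in LM2 with overlapping bounds.

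**Figure D3:**
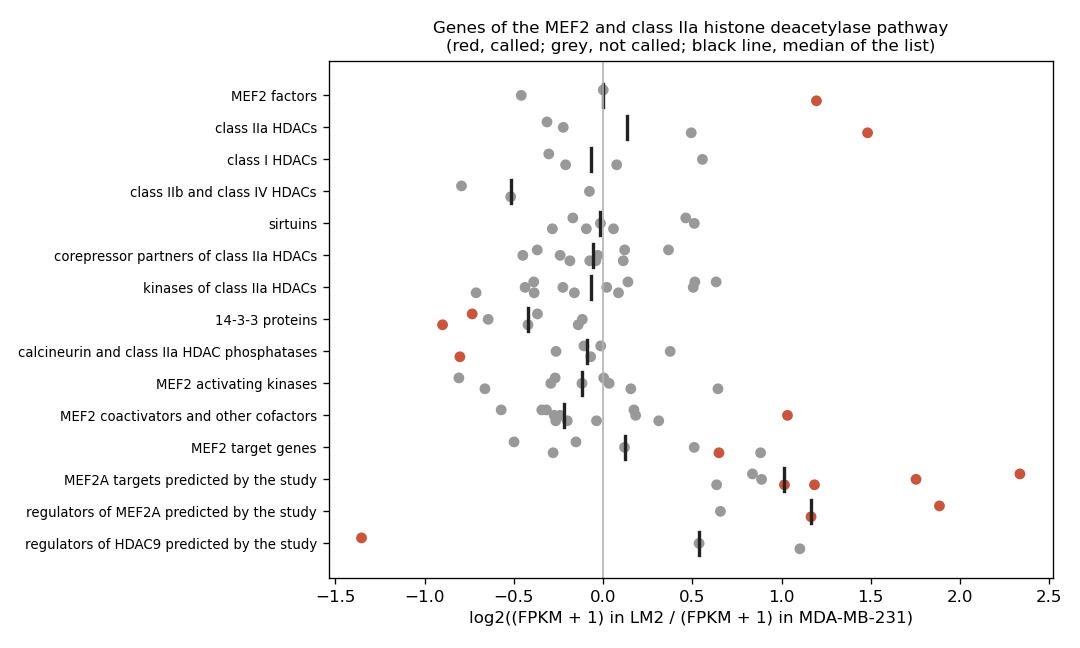
Log2 fold change of every tested gene in the lists of the pathway, 1 point per gene; red points were called, grey points were not, and the black line is the median of the list. MEF2A (1.20) and HDAC9 (1.48) lie apart from the other genes of their families, and the 7 predicted MEF2A targets all lie above 0.

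By the pair of levels in the 2 lines, the genes most like HDAC9 were LPXN, HDDC3 and PITPNC1. Their Euclidean distances from it in log2(FPKM + 1) were 0.03, 0.05 and 0.08. LPXN, for example, had 12.3 FPKM in MDA-MB-231 and 35.5 FPKM in LM2. Nearest to MEF2A were WFS1 (distance 0.05), ARMCX1 (0.08) and FSCN1 (0.11), with WFS1 at 12.5 FPKM and 29.1 FPKM. A likeness over 2 points describes levels only.

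The labelled cell type was checked against markers. The mesenchymal genes VIM (1355 FPKM in MDA-MB-231 and 1768 FPKM in LM2) and CD44 (470 and 355 FPKM) were high in both lines, ZEB1 had 26.1 and 40.5 FPKM, and CDH2, below the filter, 0.221 and 0.0839 FPKM. Of the same 6 genes SPARC was called higher and FN1 lower. The receptor genes ESR1 and PGR were under 0.1 FPKM. The receptor gene ERBB2 was not: it had 34.95 FPKM (20.9–49.0) in MDA-MB-231 and 22.8 FPKM (12.8–32.7) in LM2, and was not called. The epithelial genes KRT8, KRT18 and EPCAM were called lower in LM2, with the summed FPKM of the 8 breast and receptor markers going from 1125 to 392. Of the 8 muscle markers 5 were listed at 0 in both lines, MYOD1 and MYF5 included, though TNNT1 was called higher (95.4 to 157 FPKM) and made up most of their sum (96.7 to 159 FPKM). Of 5 endothelial markers with a row, TIE1 (0.332 to 3.81 FPKM) and KDR (0.971 to 2.48 FPKM) were called higher, while CDH5, VWF and CLDN5 stayed under 0.1 FPKM; their summed FPKM went from 1.38 to 6.47. Of the 7 rows of neuronal markers, SNAP25 was called higher and 1 of the rows of TUBB3 lower, and their sum went from 47.0 to 24.8 FPKM. The white blood cell gene CD3E was listed at 0 in both lines and PTPRC was under 0.1 FPKM. Of the 8 white blood cell markers 6 were below the filter and 2, CD14 and CD68, were tested, with 0 called. CD68 had 107 FPKM (0–238) in MDA-MB-231 and 179 FPKM (10.6–347) in LM2. The part of these differences in the changes of MEF2A and HDAC9 was not tested.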

How the data were processed

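The deposited table held 1 FPKM value with lower and upper bounds per gene for MDA-MB-231 and for LM2, each combined by the authors over 2 RNA-Seq libraries. According to the methods, paired reads of 150 bases (TruSeq) were mapped to hg19 with TopHat and FPKM was computed with Cufflinks and cuffdiff on GENCODE 19; the use of strand and the normalization between libraries are not given in the sources used here. The total count per library is not in this table, and depth was not examined here beyond its correction in FPKM. The study's supplement lists aligned read pairs per library, which were not used. The sums of FPKM were 632944 in MDA-MB-231 and 598147 in LM2. The table holds no columns of the authors' comparisons.

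Here, the log2 fold change of (FPKM + 1) from MDA-MB-231 to LM2 was computed for every gene with status OK in both lines (8 rows had another status) and a mean of at least 0.5 FPKM. A gene was called where (FPKM + 1) changed by 1.5-fold or more with bounds apart. No p-value was computed, because each line has 1 combined value. Positions and exon overlaps came from GENCODE 44 on GRCh37, with 13555 of the 13911 tested genes matched by Ensembl ID. Promoters came from RefSeq and were placed on GRCh37 by exact match. Python 3.11.15, NumPy 2.4.6, pandas 2.3.3 and Matplotlib 3.10.9 were used.

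The genes followed and the lists were chosen with earlier results of these data known. Named were the 7 genes and MEF2B. Of each other list, the genes called were named (at most 5 by size of change), or otherwise the one with the largest change. Also named were the nearest tested protein-coding gene on each side that does not overlap, and the 3 genes closest in level to HDAC9 and to MEF2A. Other genes named as examples were chosen after their values were seen. Alternatives were another or no pseudocount, TPM scaling, centring on the median, other folds, fold or bounds alone, other filters on low values and other windows around a gene.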

Additional observations from a re-analysis of the deposited data

How the results depend on the processing

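MEF2A and HDAC9 were called higher, and the other 5 genes were not called, under each alternative in pseudocount, scaling, centring, fold, bounds and filter. MEF2C (mean 2.35 FPKM) was not tested at a mean of at least 5 FPKM. All 62 combinations of gene and alternative kept their side of the rule. Direction could change only with the pseudocount, scaling or centring, and did not. The other alternatives leave the log2 fold change as it is. The log2 fold change was 1.20 to 1.30 for MEF2A and 1.48 to 1.59 for HDAC9, highest with TPM scaling. Windows of 1 Mb or 10 Mb moved none of 14 differences from the neighbours by more than the error taken from the bounds. For MEF2A the excess was 0.07 within 1 Mb and 0.26 within 10 Mb, both smaller than its error of 0.33. For HDAC9 the excess was 1.44 and 1.35, with an error of 0.25. For HDAC4 the error was 0.76, so wide that this comparison says little. Over the whole table, 649 genes were called higher and 641 lower. With a fold of 1.5 alone the counts were 1434 and 1640, with a mean of at least 5 FPKM 321 were called higher and 443 lower, and with a fold of 2 there were 450 higher and 403 lower. TPM scaling gave 784 higher and 574 lower. No paired analysis was possible because the table has no values per library, and leaving out a library could not be run for the same reason. What limits these results is that the spread between the 2 libraries of a line cannot be seen.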
